A study of Homo sapiens with 6 samples.

Results

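The genes described here encode the enzymes that carry glucose to pyruvate and lactate. They were chosen by symbol as GAPDH, ALDOA, ENO1, PKM, PGK1, TPI1, LDHA, LDHB, GPI and HK2. Of these 10 genes, 9 were matched by symbol among the 15832 genes of the deposited table, and LDHB was not analysed here. All 9 passed the filter for testing, an average of 1 TPM or more over the 6 libraries. TPM is a length-scaled share of each library's transcripts. The cells were AsPC-1, an established line from human pancreatic cancer, harvested 48 h after transfection. 3 libraries had received siControl, a control siRNA, and 3 had received siVCPIP1, an siRNA against the deubiquitinating enzyme VCPIP1. The labels name 1 cell line, no stable genetic change and no separate cultures for the replicates, so the p-values below measure the spread between libraries, which may be technical. The sources used here do not give the siRNA sequences.

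Glycolysis splits glucose into pyruvate in the cytosol with a net gain of ATP and NADH. Hexokinases (HK) trap glucose by phosphorylation, the isomerase GPI and the aldolases rearrange and split the sugar, and TPI1 interconverts the resulting triose phosphates. GAPDH then makes the first high-energy phosphate and NADH, PGK1 and PKM make ATP, ENO1 supplies the substrate of PKM, and lactate dehydrogenase turns pyruvate into lactate and restores NAD+. Pancreatic cancer cells are known for high glucose use, and several of these genes are textbook targets of the hypoxia factor HIF1. GAPDH and PGK1 also serve as loading references in expression assays.

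The groups differed across the whole table. VCPIP1 lay at 2.24 to 3.06 TPM in siControl and at 0.11 to 0.27 TPM in siVCPIP1. Genes whose transcript has a GC content under 45% held 13.1% to 15.2% of TPM in siControl and 3.73% to 5.89% in siVCPIP1. The 10 most abundant genes of a library held 9.96% to 10.4% and 13.5% to 15.6%. siVCPIP1 replicate 3 lay between the groups: in 84.0% of the 10966 genes tested its difference from the siControl mean had the same sign as in replicates 1 and 2 and was smaller. Of 12 markers of pancreatic ductal cancer epithelium, 11 averaged 1 TPM or more, and their summed level ran from 14187 to 16300 TPM in siControl and from 21126 to 23872 TPM in siVCPIP1, most of it keratins. The sum hides opposite changes: with TPM as deposited, 4 of these 11 were called higher and 7 lower by limma as described below. Of all genes tested, 15.0% were higher and 66.0% lower. The epithelial adhesion genes EPCAM (172 and 5.96 TPM) and CDH1 (28.9 and 0.677 TPM) were low in siVCPIP1, and CEACAM5 was near 0 in both groups. Of 14 measured markers of other cell types, 3 averaged 1 TPM or more (CD68, HBA1 and LYZ). Sums over all 14 were 157 to 163 TPM in siControl and 158 to 179 TPM in siVCPIP1. The part of any of the differences above in the results below was not tested. In bulk RNA, fewer cells of a type and less RNA per cell cannot be told apart, and TPM is a share, so a gene can gain share because others lose it.

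The calls of the 9 enzymes did not follow the order of the pathway. GAPDH, ALDOA, TPI1 and PKM held more TPM in siVCPIP1, ENO1 was not called, and PGK1, LDHA, HK2 and GPI held less (limma on log2(TPM + 1), Benjamini-Hochberg adjusted p under 0.05 over all 10966 genes tested). Across all genes tested, 15.0% were called higher and 66.0% lower, with a median log2 fold change of -1.12. The median over the 9 enzymes was 0.10. Of all genes tested, 96.7% had a lower log2 fold change than GAPDH, 96.6% than ALDOA, 86.8% than TPI1, 82.4% than PKM, 78.2% than ENO1 and 67.2% than GPI. For LDHA, HK2 and PGK1 this share was 23.3%, 20.2% and 18.3%, so their falls were steeper than that of the median gene. The groups did not overlap in 8 of the 9 enzymes, 4 higher and 4 lower, where 18.2% of all genes tested lay higher without overlap and 67.9% lower. In 8 of the 9, all but ENO1, siVCPIP1 replicate 3 had the smaller difference described above. With 1 library left out at a time, 3 or 4 members were called higher and 3 or 4 lower. Of all genes tested, 14.4%, 11.9% and 12.4% were then higher without siControl replicate 1, 2 or 3, and 11.2%, 12.5% and 16.7% without siVCPIP1 replicate 1, 2 or 3. In the same order 62.5%, 60.7% and 62.4%, and 61.9%, 62.1% and 71.1%, were lower. With the replicate number as a block, 14.5% of all genes were higher and 64.6% lower, or 36.9% and 31.9% with the GC and length correction described below.

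**Figure D1:**
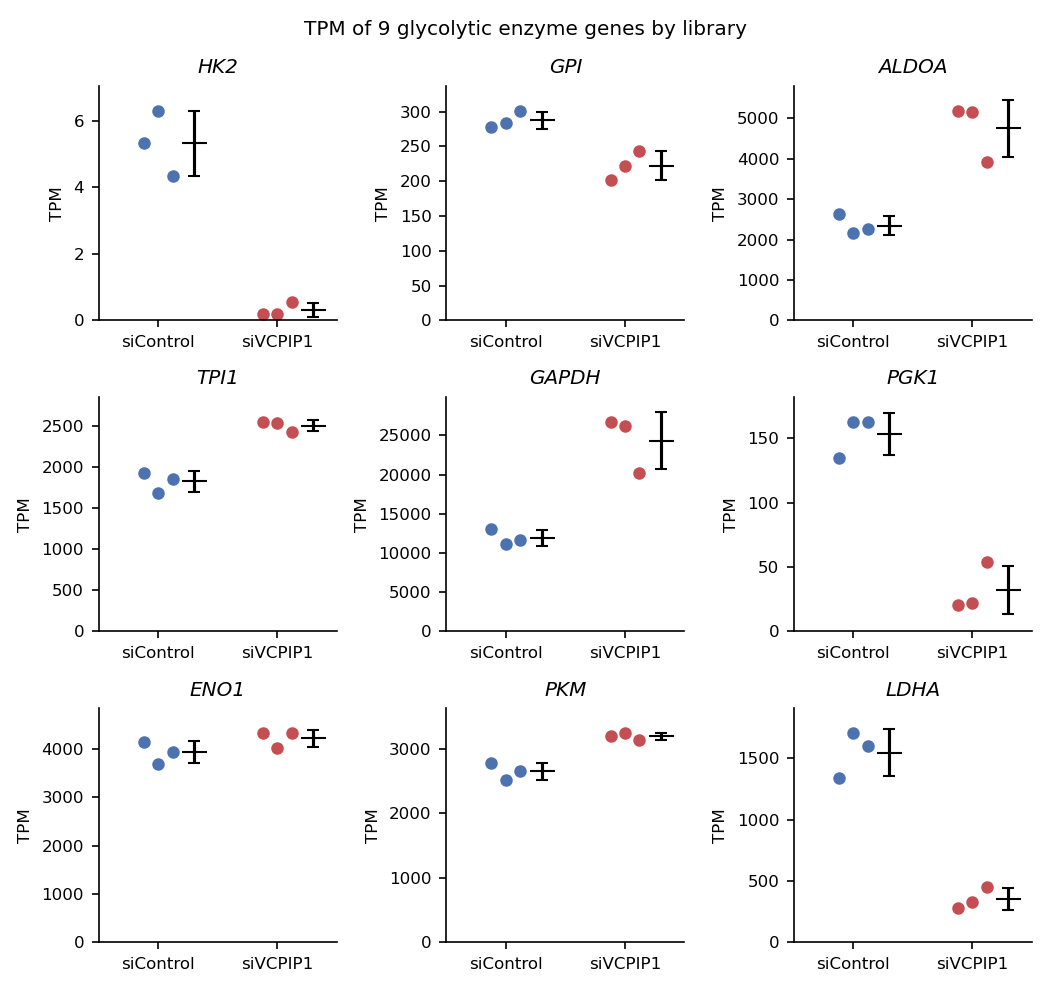
TPM of each enzyme gene in the 3 siControl (blue) and 3 siVCPIP1 (red) libraries, in pathway order, on linear axes from 0, with the mean and SD of each group in black. The groups are apart in all panels but ENO1, and siVCPIP1 replicate 3, the rightmost red point, lies nearest to siControl for GAPDH, ALDOA and PGK1.

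GAPDH, the glyceraldehyde-3-phosphate dehydrogenase, was measured at 13096, 11097 and 11620 TPM in siControl and at 26697, 26153 and 20152 TPM in siVCPIP1. Every siVCPIP1 library lay above every siControl library, and replicate 3 was the lowest of the siVCPIP1 group. The mean rose from 11938 ± 1037 to 24334 ± 3632 TPM (SD, n = 3), which is 2.04 times the siControl level (log2 fold change 1.02, SE 0.14; limma, adjusted p = 0.00017). GAPDH ranked second among all genes in each siControl library, behind the actin monomer-binding gene TMSB10, and first in each siVCPIP1 library. GAPDH spans bases 6533927 to 6538374 of chromosome 12, plus strand (GRCh38, GENCODE 29), and the transcript chosen for sequence features has 9 exons. GENCODE 29 lists 62 pseudogenes named after it, 0 of which are rows of the table. The sources used here do not say how reads shared with these copies were assigned, so the absolute level of GAPDH is uncertain.

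ALDOA, the aldolase that splits fructose-1,6-bisphosphate, moved in step with GAPDH. It was measured at 2622, 2162 and 2254 TPM in siControl and at 5177, 5143 and 3922 TPM in siVCPIP1. The order of the 6 libraries was the same as for GAPDH. The mean rose from 2346 ± 244 to 4747 ± 715 TPM (SD, n = 3; log2 fold change 1.01, SE 0.15, limma, adjusted p = 0.00020). Within a library, the log2 ratio of GAPDH to ALDOA was 2.35 ± 0.025 in siControl and 2.36 ± 0.010 in siVCPIP1 (SD, n = 3; exact permutation p = 0.6). ALDOA lies on chromosome 16 from 30064164 to 30070457, plus strand. By distance between centred log2(TPM + 1) profiles over the 6 libraries, ALDOA was the gene most like GAPDH among the 7736 genes that averaged 5 TPM or more, at a distance of 0.040. FIS1 (0.066), IDH3G (0.075) and NAXE (0.082) were also among the 5 nearest genes.

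TPI1, the triose phosphate isomerase, and PKM, the muscle-type pyruvate kinase, changed by less. TPI1 was measured at 1925, 1687 and 1858 TPM in siControl and at 2544, 2533 and 2422 TPM in siVCPIP1, with no overlap. It rose by 0.46 on the log2 scale (SE 0.11, limma, adjusted p = 0.0036). PKM was measured at 2783, 2510 and 2654 TPM in siControl and at 3202, 3243 and 3133 TPM in siVCPIP1, again with no overlap. Its change of 0.27 (SE 0.10, limma, adjusted p = 0.036) was lost in 4 of 6 fits that left out 1 library: the adjusted p was 0.14 without siControl replicate 2, 0.082 without siControl replicate 3, 0.12 without siVCPIP1 replicate 1 and 0.12 without siVCPIP1 replicate 2. It was 0.0497 without siControl replicate 1 and 0.032 without siVCPIP1 replicate 3. TPI1 lies on chromosome 12 (6867119 to 6870948, plus strand), where it overlaps SPSB2 on the opposite strand, and PKM on chromosome 15 (72199029 to 72231822, minus strand). Gene-level TPM does not separate the PKM1 and PKM2 splice forms.

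ENO1, the main enolase, was measured at 4155, 3701 and 3942 TPM in siControl and at 4330, 4023 and 4326 TPM in siVCPIP1. These ranges overlapped. The means were 3932 ± 227 and 4226 ± 176 TPM (SD, n = 3; log2 fold change 0.10, SE 0.11, limma, adjusted p = 0.38). The difference did not pass the test, while the median gene lost share. ENO1 lies on chromosome 1 (8861000 to 8879250, minus strand).

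LDHA, the lactate dehydrogenase subunit that favours lactate formation, was measured at 1338, 1706 and 1599 TPM in siControl and at 282, 331 and 452 TPM in siVCPIP1. The highest siVCPIP1 library stayed well below the lowest siControl library. The mean fell from 1548 ± 189 to 355.2 ± 87 TPM (SD, n = 3), to 22.9% of siControl (log2 fold change -2.14, SE 0.18, limma, adjusted p = 2.0e-05). LDHA lies on chromosome 11 (18394388 to 18408425, plus strand). Its rank among all genes went from between 94 and 122 in siControl to between 323 and 482 in siVCPIP1.

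PGK1, the phosphoglycerate kinase directly after GAPDH in the pathway, was measured at 134.6, 162.4 and 162.5 TPM in siControl and at 20.7, 21.7 and 53.7 TPM in siVCPIP1. Replicate 3 of siVCPIP1 held more than replicates 1 and 2, yet less than any siControl library. The mean fell from 153.2 ± 16.1 to 32.1 ± 18.8 TPM (SD, n = 3; log2 fold change -2.36, SE 0.33, limma, adjusted p = 0.00016). The log2 ratio of GAPDH, the neighbouring step, to PGK1 was 6.29 ± 0.28 in siControl and 9.71 ± 1.001 in siVCPIP1 (SD, n = 3). The PGK1 call was lost after correction for GC content and length (-0.37, limma, adjusted p = 0.13), and with 0.1 TPM added in that correction the value turned to 0.23 (adjusted p = 0.21). PGK1 lies on the X chromosome (77910739 to 78129296, plus strand), and its span holds PGAM4 on the opposite strand and overlaps ATP7A.

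HK2, the inducible hexokinase, was the least abundant of the 9, at 5.33, 6.29 and 4.35 TPM in siControl and 0.20, 0.20 and 0.54 TPM in siVCPIP1. It passed the filter for testing only through siControl, and fell to 5.89% of its siControl mean. Its log2 fold change was -2.27 (SE 0.18, limma, adjusted p = 2.0e-05). Adding 0.1 TPM in place of 1 TPM made it -3.80, since 1 TPM is larger than the siVCPIP1 values themselves. HK2 lies on chromosome 2 (74833981 to 74893359, plus strand). The other hexokinases held more TPM in siControl, with HKDC1 at 103 ± 5.18 and HK1 at 52.5 ± 4.70 (SD, n = 3).

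GPI, the glucose-6-phosphate isomerase, was measured at 277.3, 283.8 and 300.6 TPM in siControl and at 201.4, 221.8 and 243.1 TPM in siVCPIP1. The groups did not overlap. Its change of -0.37 (SE 0.12, limma, adjusted p = 0.018) was less steep than that of the median gene. The call was lost without siControl replicate 2 (adjusted p = 0.054), siControl replicate 3 (0.054), siVCPIP1 replicate 1 (0.12) or siVCPIP1 replicate 2 (0.057). After median-of-ratios scaling GPI lay higher in siVCPIP1, at 0.999 (limma, adjusted p = 0.0013). GPI lies on chromosome 19 (34359480 to 34402413, plus strand).

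The 9 enzymes together held 2.63%, 2.33% and 2.44% of all TPM in the siControl libraries and 4.25%, 4.17% and 3.47% in the siVCPIP1 libraries. The share rose from 2.47% ± 0.15 to 3.96% ± 0.43 (SD, n = 3), 1.60 times the siControl share, with an exact permutation p of 0.1 (two-sided), the smallest that 3 libraries against 3 allow. Most of the gain was GAPDH, which alone went from 1.19% ± 0.10 to 2.43% ± 0.36 of all TPM. Without GAPDH the other 8 held 1.27% ± 0.051 and 1.53% ± 0.064 (exact permutation p = 0.1). The gain is measured beside the loss in genes of low GC content given above, whose part in it was not tested.

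The makeup of the glycolytic transcripts changed as well with TPM as deposited. GAPDH made up 48.3% ± 1.22 of the TPM of the 9 enzymes in siControl and 61.2% ± 2.75 in siVCPIP1 (SD, n = 3). LDHA went from 6.32% ± 1.14 to 0.92% ± 0.34, and ENO1 from 15.9% ± 0.20 to 10.8% ± 1.49 of the same sum. Ratios within a library cannot be moved by a scaling factor, but a trend on GC content can move them. Of the 8 log2 ratios of GAPDH to another enzyme, 7 were higher in every siVCPIP1 library than in any siControl library, by 0.56 (TPI1), 0.75 (PKM), 0.91 (ENO1), 1.39 (GPI), 3.16 (LDHA), 3.42 (PGK1) and 5.26 (HK2). The HK2 difference rests on siVCPIP1 values under 1 TPM and was 3.29 with 1 TPM added before the ratio. Quantile normalization, which resets values by rank, put the differences at -0.070 (TPI1), 0.13 (PKM), 0.45 (ENO1), 0.60 (GPI), 2.53 (LDHA), 2.18 (PGK1) and 1.21 (HK2), and that of ALDOA at -0.51. With TPM as deposited, each of the 7 higher ratios had an exact permutation p of 0.1, or 0.11 after Benjamini-Hochberg adjustment over the 8 ratios. The quantile-normalized ratios were not tested in this way. No ratios were computed after the GC and length correction described below. In that fit the log2 fold changes were 0.96 (GAPDH), 0.72 (ALDOA), 0.64 (GPI), 0.49 (TPI1) and 0.49 (PKM). Those of ENO1, LDHA, PGK1 and HK2 were 0.19, 0.05, -0.37 and -0.99.

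**Figure D2:**
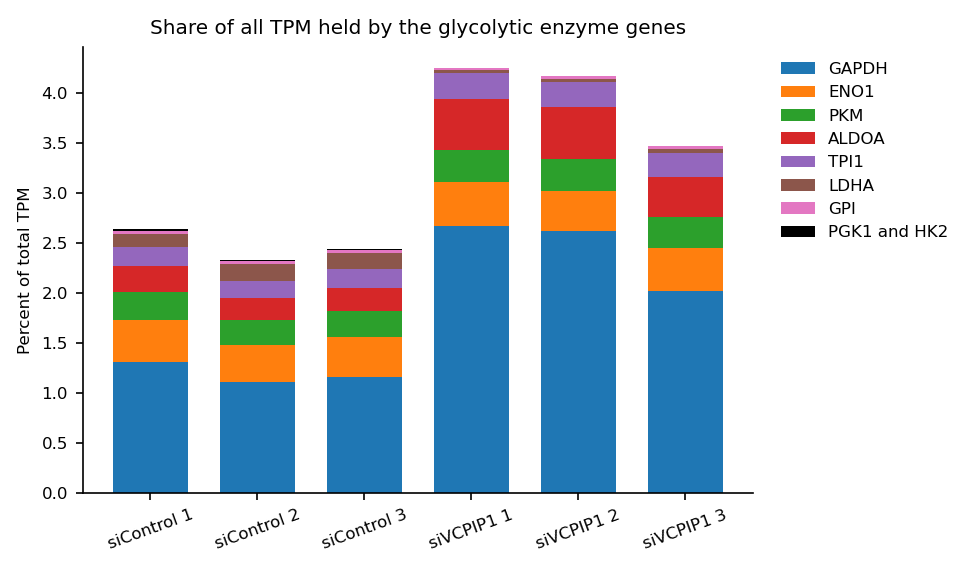
Percent of total TPM held by the 9 glycolytic enzyme genes in each of the 6 libraries, stacked by gene. The stack reaches 2.33% to 2.63% in siControl and 3.47% to 4.25% in siVCPIP1, and the GAPDH segment accounts for most of the difference.

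Sequence features set the rising and falling enzymes apart. In the transcript chosen for each gene, GC content was 55.9% to 60.1% for GAPDH, ALDOA, TPI1, PKM and ENO1, 53.6% for GPI, 51.2% for HK2, 44.0% for LDHA and 43.3% for PGK1. The 3' UTRs separated them further, with a GC content of 53.7% to 60.8% in the first 5 genes and of 50.2%, 40.8%, 37.2% and 39.6% in GPI, HK2, LDHA and PGK1. The 3' UTRs were 199 to 621 nt long in the first 5 genes and 2377, 2418, 1144 and 3466 nt in these 4. ENO1, among the first 5, was not called. The log2 of 3' UTR length correlated with log2 fold change at r = -0.86 across the 9 enzymes, and at only -0.30 over 10117 genes. Across the 9 enzymes, log2 fold change correlated with the GC content of the 3' UTR (r = 0.976, Spearman's rho 0.883) and of the transcript (r = 0.916, rho 0.833). The same correlations were 0.749 over 10117 genes and 0.724 over 10708 genes. These are descriptions across genes that share 6 libraries, not tests.

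The coding sequences differed less between the genes that rose and those that fell. The lines below give the 20 codons nearest the middle of each coding sequence, 5′ to 3′ on the coding strand, from GENCODE 29 transcripts, with a G or C that ends a codon in capitals. GAPDH and ALDOA are shown because they rose most, and PGK1 and LDHA because they fell most apart from HK2, the least abundant of the 9.
GAPDH: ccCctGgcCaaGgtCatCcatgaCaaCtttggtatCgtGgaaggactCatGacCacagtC
ALDOA: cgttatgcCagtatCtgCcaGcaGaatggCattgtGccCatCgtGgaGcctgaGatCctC
PGK1: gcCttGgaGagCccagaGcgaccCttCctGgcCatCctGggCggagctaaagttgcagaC
LDHA: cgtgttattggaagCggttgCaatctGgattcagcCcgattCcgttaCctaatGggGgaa
Of the 20 codons shown, 14 end in G or C in GAPDH, 14 in ALDOA, 13 in PGK1 and 8 in LDHA. Over the whole coding sequence the shares are 71.7%, 73.4%, 56.0% and 46.5%. Coding sequence alone did not separate the groups, since GPI and HK2, which fell, have 75.7% and 71.2% and PKM, which rose, 64.5%. Across the 9 enzymes, the share of codons ending in G or C correlated with log2 fold change at r = 0.586, less than 3' UTR GC content did. Over 10708 genes it correlated at 0.643, nearer to the values for transcript and 3' UTR GC content given above.

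**Figure D3:**
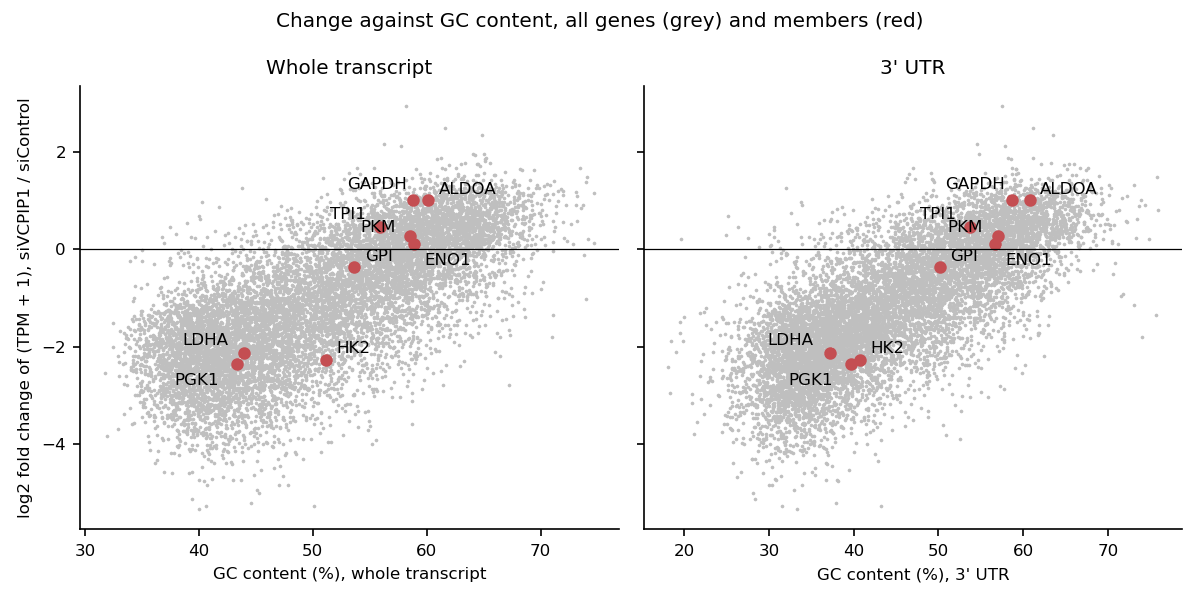
Log2 fold change of (TPM + 1) against the GC content of the whole transcript (left) and of the 3' UTR (right, genes with at least 100 nt), for all genes with a value (grey) and the 9 enzymes (red, named). The enzymes lie within the cloud of all genes, with LDHA and PGK1 in its lower left and GAPDH and ALDOA in its upper right.

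The fit was repeated with each library's trend on transcript GC content and length removed. This also aligned the centres of the libraries, and the median of all genes went from -1.12 to 0.06. The part of this alignment in the changes below was not separated from that of GC content and length. GAPDH kept a higher level, at 0.96 (limma, adjusted p = 0.00078), as did ALDOA at 0.72 (0.0015), PKM at 0.49 (0.0052) and TPI1 at 0.49 (0.0033). GPI turned to 0.64 (adjusted p = 0.0018). LDHA lay at 0.05 (adjusted p = 0.72) and PGK1 at -0.37 (adjusted p = 0.13), so neither call held in this fit. HK2 was the only member it called lower, at -0.99 (adjusted p = 0.00024). With the replicate number added as a block, PGK1 was called lower too, at the same -0.37 (adjusted p = 0.035). Of all 10708 genes with a GC value, 37.2% were then called higher and 31.8% lower, and the enzymes gave 5 higher and 1 lower. The corrected values depended on the pseudocount for the falling genes: with 0.1 TPM, a setting added after the data were seen, LDHA lay at 0.50 (adjusted p = 0.017), PGK1 at 0.23 (adjusted p = 0.21) and HK2 at -2.20 (adjusted p = 0.00015). That setting gave 6 higher and 1 lower, against 36.0% and 31.0% of all genes.

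The scalings, which also align the centres of the libraries, moved every member. Median-of-ratios scaling raised the median of all genes from -1.12 to -0.02, and GAPDH to 2.40, ALDOA to 2.39, TPI1 to 1.83, PKM to 1.65 and ENO1 to 1.48, while LDHA stayed lower at -0.77, PGK1 at -1.01 and HK2 at -1.55. With quantile normalization, where the median of all genes was 0.04, GAPDH was at 0.30 (limma, adjusted p = 0.0090), PKM was not called (0.17, adjusted p = 0.15) and ENO1 lay at -0.15 (adjusted p = 0.23). The members gave 6 higher and 3 lower with median-of-ratios scaling, where 42.3% and 42.7% of all genes were called, and 3 and 4 with quantile normalization, where 42.2% and 38.8% were. Quantile normalization gives the top ranks nearly the same value in each library, which limits the change a gene ranked first or second can show. Relative to the median of all genes, LDHA, PGK1 and HK2 stood at -1.02, -1.23 and -1.14 with TPM as deposited, and at -0.75, -0.99 and -1.53 after median-of-ratios scaling. GAPDH stood at 2.14 and 2.41. With quantile normalization the same 3 genes stood at -2.26, -1.91 and -0.94 and GAPDH at 0.27, and after the GC and length correction at -0.02, -0.44 and -1.06 and GAPDH at 0.89. The distance from the median gene therefore depended on the setting, and that of LDHA was near 0 after the correction.

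**Figure D4:**
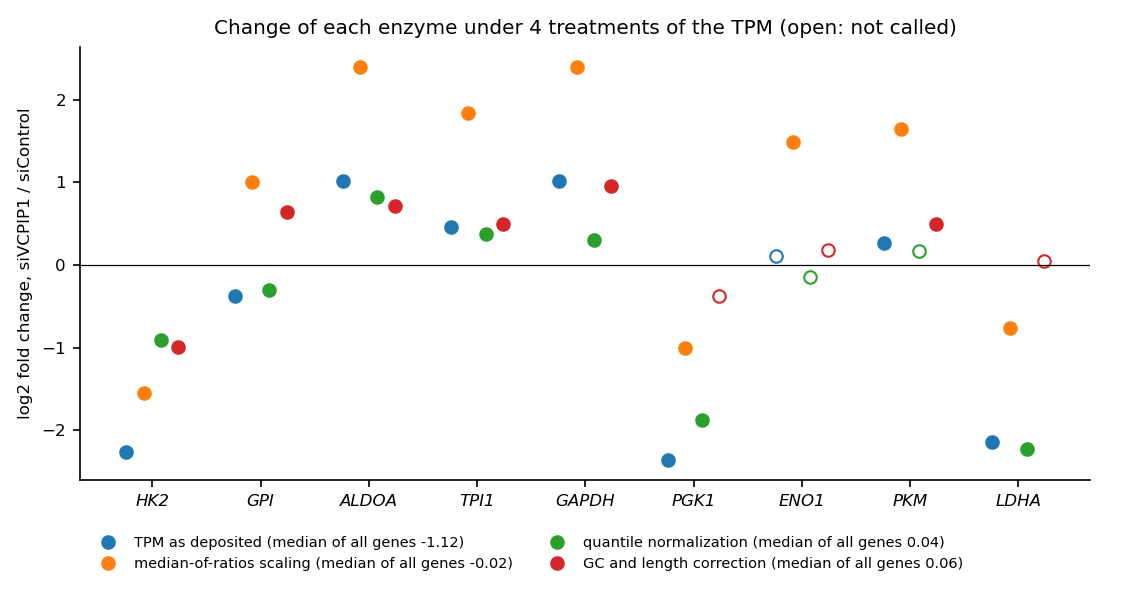
Log2 fold change of each enzyme under 4 settings: TPM as deposited, median-of-ratios scaling, quantile normalization, and correction for GC content and length. Filled points are called at an adjusted p under 0.05 and open points are not, and LDHA and PGK1 lose their calls only with the GC and length correction, where GPI lies above 0.

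The other enzymes of the pathway split in a way close to all genes. Of 12 tested genes in this list, 8 fell, beside 66.0% lower and 15.0% higher over all genes. PFKL, ALDOC and PGAM2 rose and ENO3 was not called. The median was -0.81 against -1.12 for all genes. PGAM2 passed the filter only through siVCPIP1, which favours a call as higher. Among phosphofructokinases, which commit sugar to glycolysis, PFKP fell from 452 ± 42 to 250 ± 91 TPM and PFKM from 107 ± 9.61 to 40.0 ± 16.7 TPM, whereas PFKL rose from 78.2 ± 8.86 to 102 ± 5.97 TPM (SD, n = 3), though with median-of-ratios scaling PFKP lay higher, at 0.47, and PFKM was not called (-0.11, adjusted p = 0.53). PFKM was not called after the GC and length correction either (-0.16, adjusted p = 0.28), nor was PFKL (0.21, adjusted p = 0.086). The mutase PGAM1, between PGK1 and ENO1 in the pathway, fell from 428 ± 45 to 149 ± 57 TPM but was not called with median-of-ratios scaling (-0.20, adjusted p = 0.29), and ADPGK, an ADP-dependent glucokinase, fell by 2.95 on the log2 scale. The list held 7 higher and 2 lower genes with median-of-ratios scaling, 4 and 5 with quantile normalization, and 5 and 4 once GC content and length were corrected for. The shares of all genes in these settings, given above, were 42.3% higher and 42.7% lower, 42.2% and 38.8%, and 37.2% and 31.8%.

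Genes that share an enzyme name went different ways. A list of genes that share an enzyme name with HK2, ALDOA, ENO1, PGK1, PKM, LDHA or GAPDH, these members included, held 13 tested genes. Of them, GAPDH, ALDOA, PKM, ALDOC and LDHD rose, 6 fell and ENO1 and ENO3 were not called, beside 15.0% and 66.0% of all genes. Of these 13, 9 were higher and 4 lower with median-of-ratios scaling (42.3% and 42.7% of all genes), 5 and 4 with quantile normalization (42.2% and 38.8%), and 7 and 2 after the correction for GC content and length (37.2% and 31.8%). The brain-type aldolase ALDOC rose from 33.8 ± 1.27 to 91.8 ± 2.51 TPM, a log2 fold change of 1.42 (limma, adjusted p = 2.1e-05), beside the rise of ALDOA. Of the enolases, ENO2 fell by 0.71 with TPM as deposited and stood at 0.61 with median-of-ratios scaling and 0.34 with quantile normalization, and ENO3 was at 0.40 (adjusted p = 0.095). HKDC1 fell by 1.80, and HK1 by 0.45 (limma, adjusted p = 0.0496), which turned to 0.90 and 0.22 under these scalings and to 0.45 after GC and length correction. LDHD, a mitochondrial D-lactate dehydrogenase, rose from 6.98 ± 1.53 to 12.5 ± 1.08 TPM. It shares a name with LDHA but is not of the same protein family. GAPDHS, PKLR, LDHC, HK3, ENO4 and PGAM4 lay under the filter. PGAM2 went from 0.153 ± 0.179 to 2.12 ± 0.82 TPM, a low level in both groups, and passed the filter only through siVCPIP1.

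Of 7 tested transporters and their partners, 4 fell and 0 rose (limma; 1 lay higher at an unadjusted p under 0.05), beside 66.0% and 15.0% of all genes. The lactate exporter SLC16A1 fell by 3.19, the glucose transporter SLC2A1 by 2.44 and EMB, a partner of monocarboxylate transporters, by 2.40, the last not called after the GC and length correction (-0.13, adjusted p = 0.24), while SLC2A3 fell by 0.59 with TPM as deposited and stood at 0.62 with median-of-ratios scaling and 0.93 with quantile normalization. SLC16A3, the other main lactate exporter, was at 216 ± 40 and 273 ± 17 TPM (adjusted p = 0.061). Of 14 tested regulators, 11 fell and 0 rose (limma; 0 higher also at an unadjusted p under 0.05), with a median of -1.27 against -1.12 for all genes. On log2(TPM + 1), the transcription factors MYC (-3.60), HIF1A (-3.40) and EPAS1 (-2.78) fell most. Next came the phosphatase PDP1 (-2.54), which activates pyruvate dehydrogenase. Mean TPM went from 54.2 to 4.36 for MYC, 15.2 to 0.503 for HIF1A, 24.4 to 2.91 for EPAS1 and 6.74 to 0.323 for PDP1. The added 1 TPM is larger than the siVCPIP1 means of HIF1A and PDP1, so this order depends on it. With median-of-ratios scaling, 4 transporters and 4 regulators were higher and 3 and 6 lower, beside 42.3% higher and 42.7% lower of all genes. With quantile normalization, 3 and 7 were higher and 3 and 5 lower (42.2% and 38.8% of all genes), and after the correction for GC content and length 2 and 6 were higher and 2 and 4 lower (37.2% and 31.8%).

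HIF1 target genes outside glycolysis had a median of -1.91, against -1.12 for all genes. Of 15 tested, 12 fell and ANGPTL4 rose, beside 66.0% and 15.0% of all genes. The oxidoreductase ERO1A fell by 3.50, the mitophagy receptor BNIP3L by 3.15, the collagen hydroxylase P4HA1 by 3.05 and the demethylase KDM3A by 3.03, and these 4 were also lower under each scaling and after GC and length correction. Calls were 10 lower and 4 higher with median-of-ratios scaling, beside 42.7% and 42.3% of all genes. They were 9 lower and 2 higher both with quantile normalization (38.8% and 42.2% of all genes) and after the GC and length correction (31.8% and 37.2%).

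The core of the hypoxia response element is written ACGTG or GCGTG, and both were searched on either strand. In RefSeq promoter windows (250 bases before to 50 after the start, GRCh38.p14) the letters ACGTG were found in HK2, GPI, ALDOA, GAPDH, PGK1 and LDHA, and in 21.4% of 35116 windows of that length. The letters GCGTG were found in HK2, PGK1, LDHA, PKM and ENO1, and in 36.5% of windows. The TPI1 window held neither. A palindromic CACGTG counts on both strands. An ACGTG match upstream of the start is shown for 2 genes that rose and 2 that fell, with the match in capitals, which reads CACGT where it lies on the other strand.
GAPDH, chr12:6535172-6535201, plus strand: ctctgcggggtcACGTGtcgcagaggagcc
ALDOA, chr16:30064089-30064118, plus strand: ccttcccctccaCACGTcaacgattctatt
PGK1, chrX:78104053-78104082, plus strand: aaacggaagccgCACGTctcactagtaccc
LDHA, chr11:18394478-18394507, plus strand: cgtgggttcccgCACGTccgccggcccccc
These letters thus stand in the windows of genes that rose and of genes that fell, and a match is not evidence of binding.

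Pathways that branch from glycolysis or take its product were measured too. Of 24 tested genes for pyruvate entry and the TCA cycle, 20 fell and IDH3B and IDH3G rose, at a median of -2.05, beside 66.0% lower, 15.0% higher and a median of -1.12 over all genes. The succinate dehydrogenase subunit SDHD fell from 160 ± 23 to 9.90 ± 7.67 TPM, and the ligase subunits SUCLA2 (-3.82) and SUCLG2 (-3.20) and the cytosolic malate dehydrogenase MDH1 (-3.63) fell too. Of 7 pentose phosphate genes, 3 rose, PGLS and TKT among them, and PGD, RPIA, RPE and TALDO1 fell, although TALDO1 and PGD lay higher, at 0.66 and 0.996, with median-of-ratios scaling. The median of these 7 was -0.38. PGLS stood at 1.34, RPIA at -1.96, and RPE at -2.41 with TPM as deposited and 0.01 after the GC and length correction. Of 9 tested genes of gluconeogenesis and glycogen metabolism, PC and G6PC3 rose and 5 fell, among them UGP2, which makes the glucose donor for glycogen, (-4.03), PGM2 (-3.20), GBE1 (-2.88) and PGM1 (-1.73), the last not called with median-of-ratios scaling (-0.38, adjusted p = 0.070). The median of these 9 was -0.50. For these 3 lists median-of-ratios scaling gave 5 higher and 14 lower, 5 and 2, and 5 and 3, quantile normalization 2 and 19, 3 and 4, and 3 and 4, and the correction for GC content and length 5 and 13, 4 and 2, and 2 and 4. The shares of all genes beside them were 42.3% higher and 42.7% lower, 42.2% and 38.8%, and 37.2% and 31.8%.

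GAPDH rose relative to each of the other 18 genes in a fixed list of common reference genes. Of the 19, 3 rose, GAPDH and RPLP0 among them, 13 fell and 3 were not called, RPL13A and RPS18 among them, beside 15.0% higher and 66.0% lower of all genes. Median-of-ratios scaling put 8 of them higher and 8 lower (42.3% and 42.7% of all genes), with quantile normalization 3 and 11 (42.2% and 38.8%), and after the GC and length correction 6 and 11 (37.2% and 31.8%). The log2 ratio of GAPDH to another reference gene was higher in siVCPIP1 by 0.49 (RPLP0) to 5.37 (HPRT1), with a median of 2.33. B2M fell from 1386 ± 191 to 97.3 ± 81 TPM, and HPRT1 (-3.87), TFRC (-3.61) and EEF1A1 (-3.36) fell on the log2 scale. The measured VCPIP1 level therefore depended on its denominator. Divided by GAPDH, VCPIP1 stood at 2.77% of its siControl ratio, by RPLP0 at 3.90%, by ACTB at 15.5% and by PGK1 at 29.7%. Divided by B2M, TFRC or HPRT1, it stood at 98.3%, 101% and 114%. These are point values whose spread was not computed, and VCPIP1 lay under 1 TPM in siVCPIP1. The log2 ratios of GAPDH to these 3 genes had an SD of 1.33, 0.98 and 1.39 over the siVCPIP1 libraries. The median over the 19 genes was 12.6%.

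**Figure D5:**
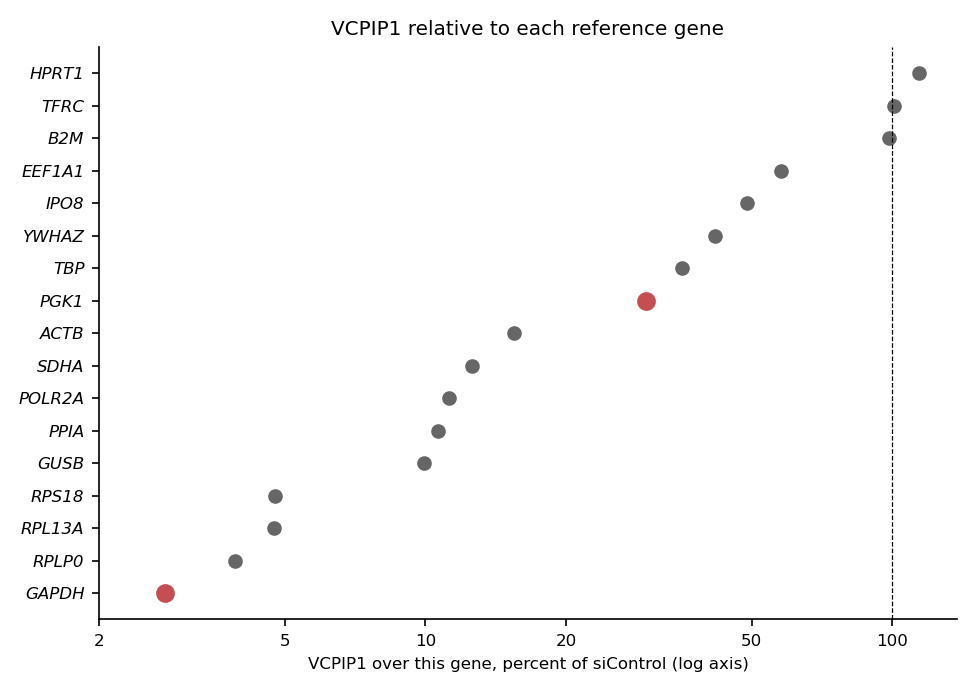
VCPIP1 TPM divided by that of each of 17 of the 19 reference genes, as the percent of the siControl ratio that siVCPIP1 libraries showed (ratio of geometric means over 3 libraries each, log axis). The dashed line marks 100%, GAPDH (2.77%) and PGK1 (29.7%) are in red, and B2M, TFRC and HPRT1 lie at or near the line. No spread is shown.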

How the data were processed

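RNA from 6 AsPC-1 libraries was sequenced after Trizol lysis. The table the authors deposited holds TPM for each gene symbol, with 2 decimals, per the file headers. The build was GRCh38.p13, per the submitters' processing notes. For aligner, annotation, strand setting and filters: not given in the sources used here. Since TPM holds no read depth, there are no counting intervals. Column names gave the samples. The 10966 genes that averaged 1 TPM or more were fitted in limma 3.58.1 (R 4.3.3) on log2(TPM + 1), with group as the factor. A gene can pass this filter through 1 group alone, which favours a call in the direction of that group. PGAM2 did so through siVCPIP1, and HK2, HIF1A, PDP1, EMB, PGM2 and GBE1, among others, through siControl. The fit used eBayes with a trend, and two-sided p-values were adjusted by Benjamini-Hochberg over these genes. It was also run on simulated data in which few genes changed and the centre did not shift. That setting differs from these libraries, so it does not test the fit under a shift of most genes. Shares and ratios were compared by exact permutation over libraries.

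GC content and length came from 1 coding transcript per gene in GENCODE 29 (principal isoform, then longest), found for 97.6% of genes tested. The correction fitted natural splines (5 and 3 degrees of freedom, with their product) to each library's deviations. The members, the 11 other lists and the tests were chosen with earlier results of these data known. Up to 4 called genes with the largest change were named from each of 9 lists. Fixed pathway genes, genes that share an enzyme name with a member, members of counts of 5 or fewer, and the 5 genes most like GAPDH were added. A few genes that this rule names are not reported here. Alternatives were a pseudocount of 0.1 TPM, no filter, both scalings, the GC and length correction, a replicate block and leaving out each library; their effect is given at the end. The planned LDHA to LDHB ratio was not analysed here.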

Additional observations from a re-analysis of the deposited data

How the results depend on the processing

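Median-of-ratios scaling gave 4641 genes higher and 4677 lower (1646 and 7241 with TPM as deposited), quantile normalization 4625 and 4258, GC and length correction 3981 and 3400, 3954 and 3412 with the replicate block added, and 3856 and 3321 with a pseudocount of 0.1 TPM, a setting chosen after seeing the data. Other pathway genes (11 higher and 64 lower of 88) became 34 and 40, 24 higher by quantile normalization, 26 and 38, 27 and 39, and 29 and 37. Members called lower went from 4 to 1, to 2 (HK2 and PGK1) with the block and to 1 with the 0.1 TPM pseudocount after correction. GPI reversed to 0.999 under median-of-ratios scaling and to 0.64, 0.64 and 0.84 in the 3 corrected fits, LDHA to 0.045, 0.045 and 0.50, and PGK1 to 0.23 in the last. ENO1 reversed to -0.15 and the GAPDH to TPI1 ratio to -0.070 by quantile normalization. The difference in the share of TPM, 1.49 percentage points, was 2.41 without ribosomal protein genes in the total, 0.25 without GAPDH and 0.44 after quantile normalization. Beyond what the settings do by construction, the cause of these shifts was not tested.

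Leaving out each library gave 1237 to 1845 genes higher and 6532 to 7853 lower, 3 to 4 members higher and 3 to 4 lower, 9 to 14 and 58 to 67 other pathway genes, a share difference of 1.35 to 1.74 and 7 to 7 GAPDH ratios. With the replicate block, 1586 genes were higher and 7085 lower, and 4 members each way. Deviations of same-numbered libraries from their group means correlated at 0.53, -0.27 and 0.16. Deviations within a group are tied to each other, so these values cannot settle whether the numbers pair the libraries.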
